A study of Mus musculus with 24 samples.

Results

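The 10 genes described here encode signal regulators that act between receptors of the tumour necrosis factor (TNF) family and NF-kB. They are the adaptors Traf1, Traf2, Traf3 and Traf5, the ubiquitin ligases cIAP1 (Birc2) and cIAP2 (Birc3), the ubiquitin-editing enzyme A20 (Tnfaip3) with its binding partner ABIN1 (Tnip1), the caspase-8 inhibitor c-FLIP (Cflar) and the atypical IkB protein Bcl3. They were picked by name, with earlier results of these data known, and each had 1 row among the 14106 genes of the count table. All 10 passed the filter on low counts, which left 12024 genes to test.

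The RNA came from mouse splenic B lymphocytes kept in culture with interleukin 4 and lipopolysaccharide. In the 3 Spt5-depleted libraries the cells were Supt5hFl/- Rosa26ERT2-cre/+, with 1 floxed and 1 null copy of the gene that encodes Spt5, an RNA polymerase II pausing and elongation factor. In the 3 WT libraries the cells were Rosa26ERT2-cre/+ and had no targeted Spt5 allele. Both groups carried the tamoxifen-inducible Cre expressed from Rosa26, and both received 2 µM 4-hydroxytamoxifen for the last 32 h of a 60 h activation, so the drug and the recombinase are common to them. The null allele was present in the depleted cells alone, so its action and that of the induced deletion cannot be told apart. The labels give no age or sex, and use both mature and immature for the cells. They also do not say which libraries share an animal, so the p-values rest on the spread among these libraries, and that spread may be technical. The question put to these genes was how the mRNA of each differed after Spt5 depletion in activated B cells.

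TRAF proteins are adaptors that bind the tails of receptors such as CD40 and the BAFF receptor. In resting B cells TRAF3 holds the kinase NIK, and TRAF2 brings in cIAP1 or cIAP2, which mark NIK for destruction. When the receptor is engaged the complex is disrupted, NIK accumulates and the alternative NF-kB pathway opens. A20 and ABIN1 restrain the classical NF-kB pathway by acting on ubiquitin chains, c-FLIP keeps caspase-8 from killing the cell, and Bcl3 binds the p50 and p52 subunits of NF-kB in the nucleus. Several of these genes, among them those for A20, cIAP2 and TRAF1, are themselves known NF-kB targets.

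The promoters of the 10 genes were read from RefSeq's table for the mouse build GRCm38.p6, as 250 bases before and 50 bases after each annotated start. All 10 genes matched, with 12 windows, since Birc2 and Tnfaip3 have 2 starts each. A kappa B-like motif spelled GGGNNTTCC, searched on both strands, was found in 5 of the 12 windows, and 5.82% of all 32851 promoter windows held it. The matched sites are shown with 10 flanking bases on either side and the motif in capitals, because several of these genes are known NF-kB targets. Other kappa B-like spellings match other promoters: a spelling with 10 letters, which was searched first and which this one replaced, matched 4.79% of all windows and also 5 of the 12, with Traf2 in place of Birc2. Every sequence is written 5′ to 3′ in the direction of its gene. The Tnip1 site holds overlapping matches on both strands, the Traf3 site matched in the direction of the gene, and the others matched on the opposite strand. The last Bcl3 site lies after the annotated start and the others before it.
Tnip1, chr11:54962978-54963007, minus strand: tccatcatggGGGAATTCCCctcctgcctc
Tnfaip3, chr10:19015404-19015432, minus strand: aatttccatcGGAAATCCCcctgttggca
Traf3, chr12:111166351-111166379, plus strand: gcggcccgcgGGGATTTCCagcgcgcgag
Birc2, chr9:7837269-7837297, minus strand: atcaaagtccGGAACGCCCagcggaggca
Bcl3, chr7:19822841-19822869, minus strand: cgcgggtccaGGAAACCCCtggggcggac
Bcl3, chr7:19822734-19822762, minus strand: cggcggcaggGGAAGTCCCgctgcccggc
These matches were found in genes that rose (Birc2), fell (Tnip1 and Bcl3) and did not pass the test (Tnfaip3 and Traf3). No GGGNNTTCC match was found in the windows of Traf1, Traf2, Traf5, Birc3 and Cflar, which all fell. The loosest other spelling searched, found in 50.8% of all windows, matched Traf2, Traf5, Birc3 and Cflar, and no spelling matched Traf1. Whether a match goes with the changes was not tested. Traf1 and Birc3 are among the known NF-kB targets named above.

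Birc2 and Birc3 stand side by side on chromosome 9 with no other protein-coding gene between them in that annotation, and both are read from the minus strand. Shown are the 100 bases just upstream of the outermost boundary of each gene record in that annotation, which lies upstream of the starts used for the windows, because this pair moved in opposite directions in the depleted cells. CpG pairs are in capitals.
Birc3, chr9:7873206-7873305, minus strand: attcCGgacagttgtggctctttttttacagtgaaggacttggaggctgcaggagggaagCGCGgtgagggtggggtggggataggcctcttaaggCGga
Birc2, chr9:7837132-7837231, minus strand: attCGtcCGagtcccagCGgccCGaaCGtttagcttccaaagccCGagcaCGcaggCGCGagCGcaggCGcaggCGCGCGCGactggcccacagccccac
The Birc3 stretch holds 4 CpG pairs and is 57.0% G or C, and the Birc2 stretch holds 15 and is 71.0% G or C. Over the 250 bases before a start, the Birc3 window has 6 CpG pairs, which is also the median of all promoter windows, and the upstream Birc2 window has 31, more than 94.8% of all windows. The other Birc2 window has 19. Of the genes that did not pass, Traf3 has 49, and Tnfaip3 has 22 and 6 in its 2 windows. Of the other genes that fell, Traf2 and Bcl3 have 19 each, Traf5 12, Cflar 7, Traf1 4 and Tnip1 3. Whether CpG content goes with the changes was not tested.

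The libraries held 17306549 to 21441575 counts in the Spt5-depleted group and 23340978 to 25649611 counts in the WT group. Supt5, the targeted gene, stood at 11.1 ± 2.25 CPM (normalised read count, with library sizes scaled by edgeR's TMM method) in depleted cells and 170.5 ± 18.7 CPM in WT cells (SD, n = 3 each), a log2 fold change of -3.94 ± 0.14 (SE). The X-linked RNA Xist had 1.00 to 1.73 CPM in the depleted libraries and 468 to 914 CPM in the WT libraries, and the Y-linked Ddx3y had 39.3 to 44.1 CPM in the depleted libraries and 0 to 0.042 CPM in the WT libraries. The sex-linked RNAs thus split the libraries as the genotype does, and the 2 cannot be told apart for any gene below. The summed level of 6 B cell markers was 3905 to 4531 CPM in depleted and 4365 to 4475 CPM in WT libraries, and the 2 ranges overlapped. Genes at an adjusted p under 0.05 made up 62.4% of all genes tested, with 31.8% higher and 30.6% lower in depleted cells (3823 and 3681 genes). With library totals alone in place of TMM, 4961 were higher and 2694 lower.

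Of the 10 genes 7 fell, 1 rose and 2 did not pass the test, by edgeR's quasi-likelihood test with p-values adjusted over all 12024 genes (Benjamini-Hochberg, threshold 0.05). That is 80.0% called, against 62.4% of all genes. Their median log2 fold change was -0.38, against 0.005 over all genes. With library totals alone as the scale the median was -0.22 for the 10 genes and 0.16 for all genes, and 4 of the 10 fell and 1 rose. For 8 of the 10 the depleted libraries lay wholly outside the WT range, as for 67.5% of all genes tested. In bulk RNA, fewer cells of a type and less RNA per cell cannot be told apart.

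**Figure D1:**
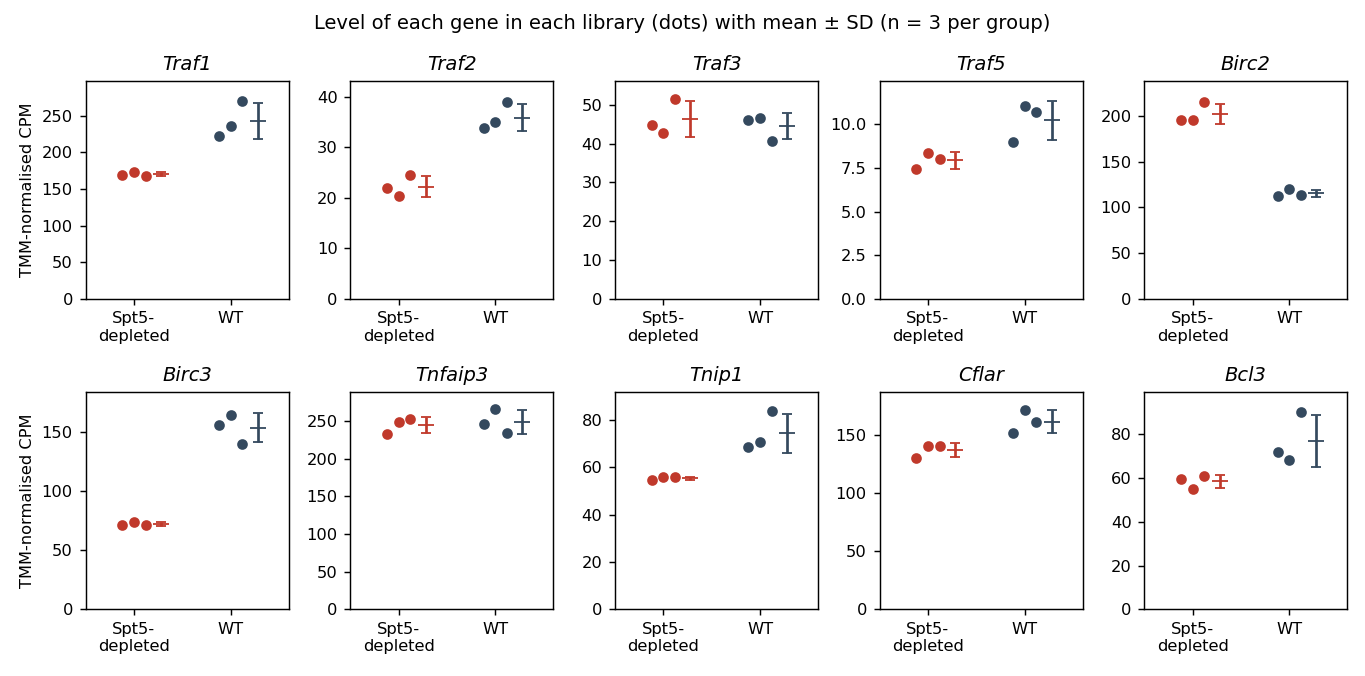
TMM-normalised CPM (y axis, from 0, one scale per panel) of the 10 genes in the 3 Spt5-depleted libraries (red) and the 3 WT libraries (dark), with the mean and SD of each group beside the dots. Birc2 is higher in every depleted library, Traf3 and Tnfaip3 overlap, and the other 7 genes are lower.

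The cIAP pair showed the largest changes among the 10 genes, in opposite directions. Birc3, the gene for cIAP2, had 71.0, 73.6 and 71.1 CPM in Spt5-depleted libraries and 155.8, 164.0 and 140.0 CPM in WT libraries. All 3 depleted libraries were far below the lowest WT library, and they lay within 1.04-fold of each other. The level in depleted cells was 46.9% of that in WT cells (log2 fold change -1.09 ± 0.09 SE, 95% interval -1.28 to -0.90, edgeR adjusted p = 8.94e-08), and 6.41% of all tested genes had a more negative log2 fold change.

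Birc2, the gene for cIAP1, had 195.8, 196.1 and 215.7 CPM in Spt5-depleted libraries and 112.6, 119.7 and 113.8 CPM in WT libraries. The groups were well apart here too, in the other direction. The rise was 1.76-fold (log2 fold change 0.81 ± 0.08 SE, 95% interval 0.63 to 0.99, edgeR adjusted p = 1.13e-06), and 13.5% of all tested genes had a higher log2 fold change. Both calls held under each of the 14 alternatives run, with log2 fold changes from -1.16 to -0.93 for Birc3 and from 0.77 to 0.97 for Birc2. In the authors' deposited table the log2 fold changes are -1.10 for Birc3 and 0.80 for Birc2.

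A ratio of counts of 2 genes within 1 library does not depend on how libraries are scaled. Since gene lengths enter it, only its change between libraries is read. The count of Birc3 over that of Birc2 was 0.363, 0.376 and 0.330 in Spt5-depleted libraries, against 1.38, 1.37 and 1.23 in WT libraries. Its mean was thus 3.73-fold lower in depleted cells (0.356 ± 0.024 and 1.33 ± 0.085, SD, n = 3 each). The ratios of the 2 groups lay far apart, and within a group they differed little. The 2 genes are paralogs, and how reads that match both were counted is not given in the sources used here, so sharing of reads between them was not tested.

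**Figure D2:**
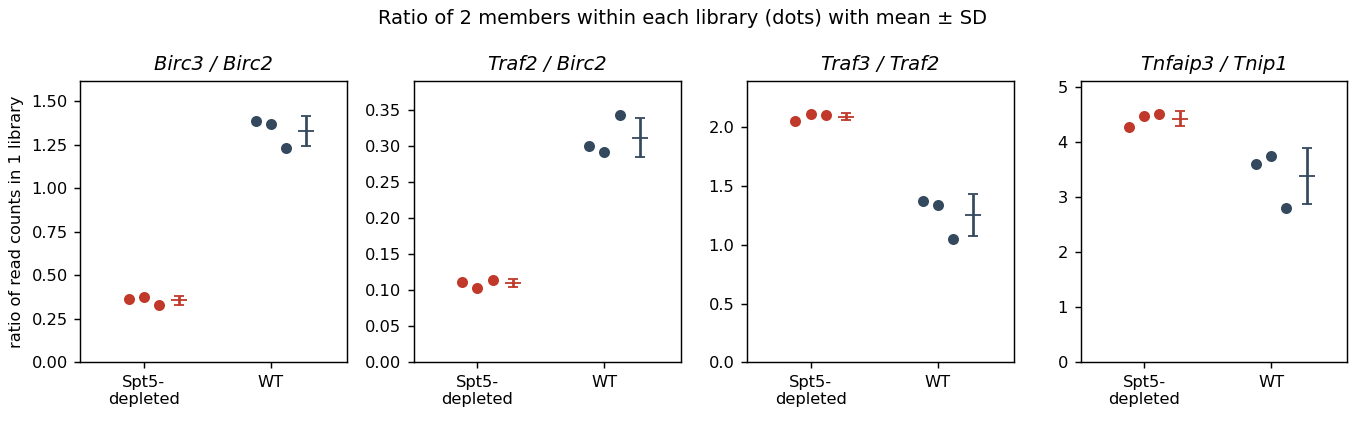
Ratio of the raw counts of 2 genes within each library (y axis, from 0), for Spt5-depleted (red) and WT (dark) libraries with mean and SD. Birc3 over Birc2 and Traf2 over Birc2 are lower in every depleted library, while Traf3 over Traf2 and Tnfaip3 over Tnip1 are higher.

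Among the 4 TRAF genes, Traf1, Traf2 and Traf5 fell and Traf3 did not pass. Traf2, the adaptor that recruits the cIAPs, had 21.8, 20.2 and 24.5 CPM in Spt5-depleted libraries and 33.7, 34.9 and 38.9 CPM in WT libraries. No depleted library reached the WT range. Its level was 61.9% of WT (log2 fold change -0.69 ± 0.10 SE, edgeR adjusted p = 4.56e-05).

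Traf1, which has no RING domain and pairs with TRAF2, had 169.5, 173.7 and 167.9 CPM in Spt5-depleted libraries and 222.1, 236.3 and 270.4 CPM in WT libraries. The depleted libraries were within 1.03-fold of each other, and WT replicate 3 was the highest of the 6. Its level was 70.1% of WT (log2 fold change -0.51 ± 0.09 SE, edgeR adjusted p = 0.000177). Traf1 and Traf2 passed under all 14 alternatives. The count of Traf1 over Traf2 overlapped between the groups, at 7.77, 8.59 and 6.86 in depleted and 6.59, 6.77 and 6.95 in WT libraries.

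Traf3, the adaptor that holds NIK, had 44.9, 42.8 and 51.5 CPM in Spt5-depleted libraries and 46.2, 46.7 and 40.8 CPM in WT libraries. The 2 ranges overlapped, with depleted replicate 3 the highest and WT replicate 3 the lowest of all. The log2 fold change was 0.06 (95% interval -0.15 to 0.27, edgeR adjusted p = 0.618), so the interval covers 0.900-fold to 1.21-fold of the WT level. Leaving out depleted replicate 3 or WT replicate 3 turned its sign, to -0.02 and -0.005 (adjusted p = 0.896 and 0.965 by edgeR).

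Count ratios among genes of the NIK-binding complex also differed between the groups, and whether the changes of these genes differed was not tested. The count of Traf3 over Traf2 was 2.06, 2.12 and 2.102 in Spt5-depleted libraries and 1.37, 1.34 and 1.05 in WT libraries, with no overlap. The count of Traf2 over Birc2 was 0.111, 0.103 and 0.114 in depleted libraries and 0.300, 0.291 and 0.342 in WT libraries. Its mean was 2.84-fold lower in depleted cells. NIK itself is encoded by Map3k14, which stood at 23.8 ± 1.27 CPM in depleted and 23.1 ± 0.23 CPM in WT cells (SD, n = 3 each, edgeR adjusted p = 0.722). NIK is controlled mainly through protein stability, which these counts do not measure.

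Traf5, a TRAF that binds CD40 together with TRAF3, had the fewest reads of the 4 TRAF rows, with 133, 178 and 186 counts in Spt5-depleted libraries and 213, 243 and 261 counts in WT libraries. Scaled, it had 7.42, 8.33 and 8.05 CPM in depleted and 8.97, 11.0 and 10.7 CPM in WT libraries, and the groups lay close together without overlapping. It fell to 77.5% of WT (log2 fold change -0.37 ± 0.13 SE, edgeR adjusted p = 0.0266). The call ended with library totals alone (edgeR adjusted p = 0.196, log2 fold change -0.21). It also ended without depleted replicate 1 or 3 or without WT replicate 2 or 3 (edgeR adjusted p = 0.0989, 0.0648, 0.0842 and 0.0597).

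Of the A20 pair, only Tnip1 passed the test, and whether its change differed from that of Tnfaip3 was not tested. Tnfaip3 had 232.9, 249.3 and 252.5 CPM in Spt5-depleted libraries and 246.3, 266.0 and 234.2 CPM in WT libraries. The ranges overlapped, with WT replicate 2 above every depleted library and depleted replicate 1 below every WT library. The log2 fold change was -0.02 ± 0.08 SE (edgeR adjusted p = 0.828), with a 95% interval from -0.20 to 0.16, or 0.868-fold to 1.12-fold of WT. The sign turned under library totals alone (0.14) and without depleted replicate 1 or WT replicate 2 (0.01 and 0.02), and no alternative gave a call.

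Tnip1, the gene for ABIN1, had 54.6, 55.7 and 55.9 CPM in Spt5-depleted libraries and 68.5, 70.9 and 83.7 CPM in WT libraries. The depleted libraries were nearly equal, at most 1.02-fold apart, and all were below WT. It fell to 74.5% of WT (log2 fold change -0.42 ± 0.09 SE, edgeR adjusted p = 0.00115), and passed under all 14 alternatives, with a log2 fold change of -0.26 under library totals alone. The count of Tnfaip3 over Tnip1 was 4.27, 4.48 and 4.51 in depleted libraries and 3.60, 3.75 and 2.80 in WT libraries, and did not overlap. The promoters of both genes hold a GGGNNTTCC match, at the sites printed above.

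Cflar and Bcl3 fell as well. Cflar, the gene for c-FLIP, had 130.4, 140.5 and 141.2 CPM in Spt5-depleted libraries and 151.8, 171.6 and 161.1 CPM in WT libraries, close but without overlap. It fell to 85.1% of WT (log2 fold change -0.23 ± 0.08 SE, edgeR adjusted p = 0.0263). The call ended under library totals alone (log2 fold change -0.07, edgeR adjusted p = 0.478) and without depleted replicate 1, depleted replicate 2 or WT replicate 2 (edgeR adjusted p = 0.119, 0.0609 and 0.0886). Gene counts do not separate the long and short forms of c-FLIP.

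Bcl3 had 59.3, 55.1 and 61.0 CPM in Spt5-depleted libraries and 71.8, 68.2 and 90.2 CPM in WT libraries. WT replicate 3 stood above the rest, as it did for Traf1, Traf2 and Tnip1. The fall was to 76.2% of WT (log2 fold change -0.39 ± 0.11 SE, edgeR adjusted p = 0.00496). It held without each library in turn (without WT replicate 3, log2 fold change -0.26, edgeR adjusted p = 0.0131) and did not hold under library totals alone (log2 fold change -0.23, edgeR adjusted p = 0.0725).

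**Figure D3:**
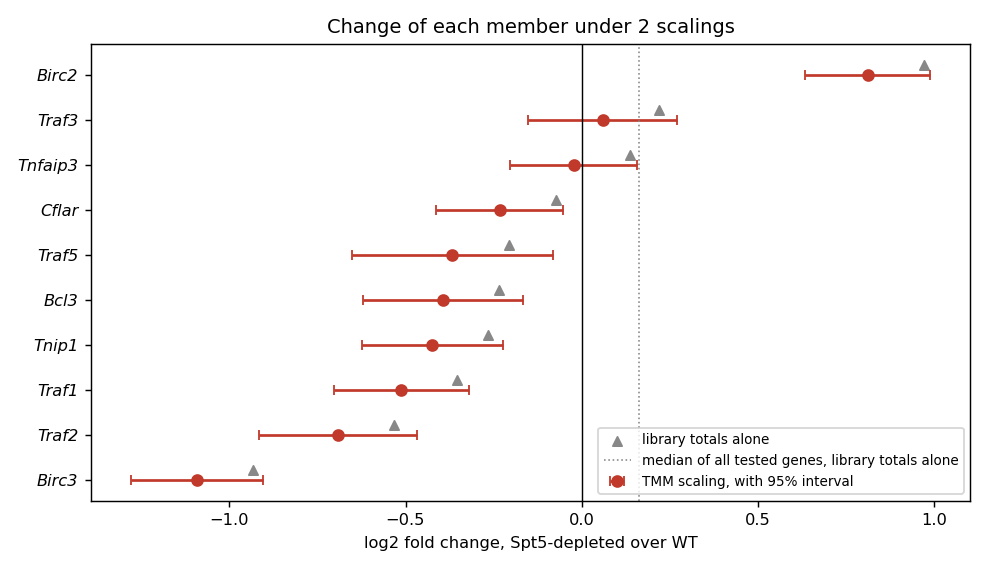
Log2 fold change of each gene, Spt5-depleted over WT (x axis), under TMM scaling with 95% intervals (red circles) and under library totals alone (grey triangles). The dotted line is the median of all tested genes under library totals alone (0.16), and that scaling moves every gene to the right without changing the order of the 10.

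In the authors' deposited table all 10 genes have the sign reported here, and 8 have an adjusted p under 0.05. The 2 that do not are Tnfaip3 (authors' deposited table, adjusted p = 0.782) and Traf3 (authors' deposited table, adjusted p = 0.747).

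Partners of these regulators were taken from 9 lists by role, 78 symbols in all. Of the 77 tested, 25 rose, 24 fell and 28 did not pass, so 63.6% were called, near the 62.4% of all genes. Their median log2 fold change was 0.04, and with library totals alone 32 rose and 19 fell. The partners are described with the protein of the 10 that they work with.

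**Figure D4:**
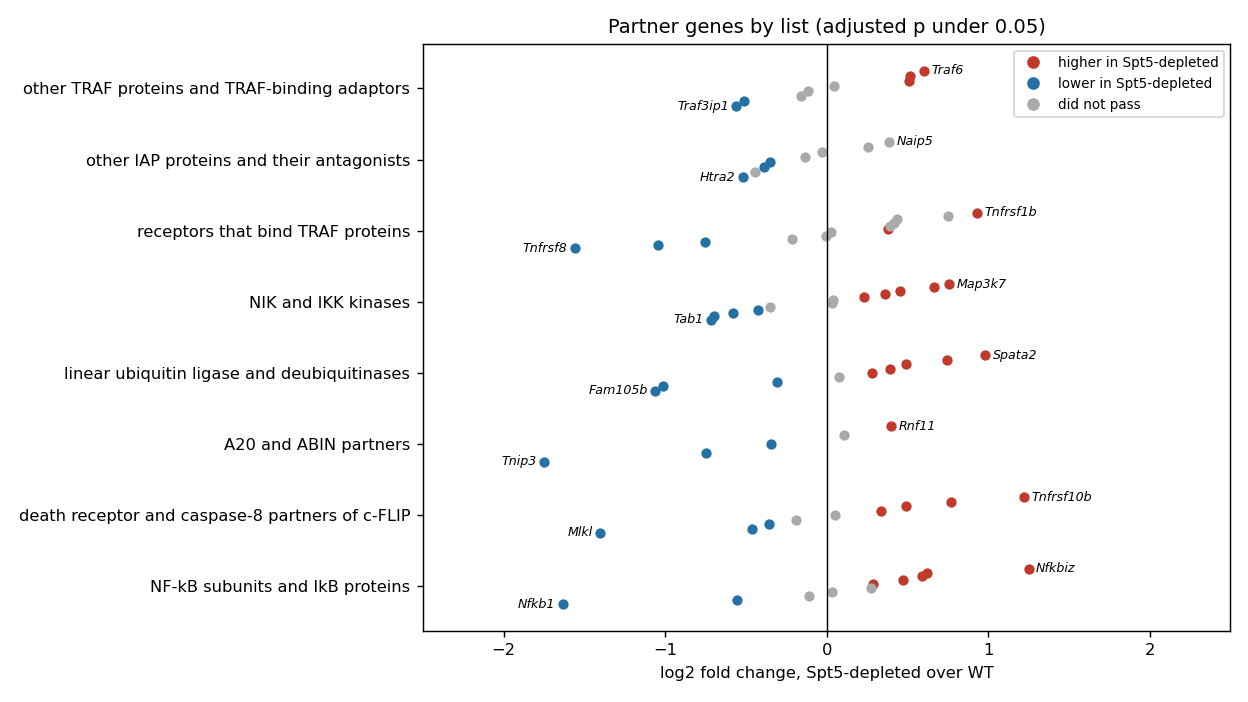
Log2 fold change, Spt5-depleted over WT (x axis), of the tested partner genes in the lists described here (rows), coloured by call at an adjusted p under 0.05. Within a row points are spread vertically by rank, and the lowest and highest gene of each list are named. Under TMM scaling all rows but that for other IAP proteins hold genes that rose and genes that fell.

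Of 12 receptor genes that bind TRAF proteins 2 rose, 3 fell and 7 did not pass. Cd40 rose to 252.2 ± 2.60 CPM in Spt5-depleted cells, against 194.1 ± 28.1 CPM in WT cells (SD, n = 3 each, log2 fold change 0.38, edgeR adjusted p = 0.00456). Tnfrsf1b, TNF receptor 2, rose to 143.3 ± 5.35 CPM in depleted cells, against 75.1 ± 6.86 CPM in WT cells (log2 fold change 0.93). Tnfrsf13c, the BAFF receptor, which signals through TRAF3, fell to 100.4 ± 8.40 CPM in depleted cells, against 206.9 ± 42.9 CPM in WT cells (log2 fold change -1.04, edgeR adjusted p = 1.84e-05). Tnfrsf13b, the receptor TACI, and Tnfrsf8, the receptor CD30, also fell (log2 fold changes -0.76 and -1.56). With library totals alone 4 receptor genes rose and 3 fell.

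Of 8 other TRAF and TRAF-binding genes 3 rose and 2 fell, under TMM and under library totals alike. Traf6, the TRAF of Toll-like receptor signalling, rose to 226.1 ± 10.4 CPM in Spt5-depleted cells, against 148.9 ± 25.1 CPM in WT cells (log2 fold change 0.60, edgeR adjusted p = 0.000244). Tank and Trafd1, known as brakes on TRAF6-dependent and innate signalling, rose as well (log2 fold changes 0.51 and 0.52). Traf3ip1 and Traf3ip3, which encode TRAF3-binding proteins, fell (log2 fold changes -0.56 and -0.51).

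Of 8 other IAP genes and IAP antagonists 0 rose and 3 fell by edgeR, where 2 rose and 1 fell with library totals alone. The falls were those of Htra2 and Diablo, mitochondrial proteins that counter IAPs, and of Naip2, a sensor protein with IAP repeats (log2 fold changes -0.52, -0.39 and -0.35), and the calls of Diablo and Naip2 ended with library totals alone. Xiap, the caspase-inhibiting IAP, had a log2 fold change of -0.13 (edgeR adjusted p = 0.353).

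Of 12 genes for NIK, the IKK kinases and their upstream partners 5 rose and 4 fell. Map3k7, the kinase TAK1, rose to 207.8 ± 6.29 CPM in Spt5-depleted cells, against 122.8 ± 9.22 CPM in WT cells (SD, n = 3 each, log2 fold change 0.76, edgeR adjusted p = 2.89e-06). Tab3, a TAK1-binding protein, and Ikbkg, the regulatory subunit NEMO, rose (log2 fold changes 0.66 and 0.45). Chuk, the kinase IKK-alpha through which NIK acts, fell to 67.2 ± 3.16 CPM in depleted cells, against 109.0 ± 5.41 CPM in WT cells (log2 fold change -0.70, edgeR adjusted p = 5.93e-06). Tab1 and Tbk1, a TAK1-binding protein and a kinase that acts with TANK, fell as well (log2 fold changes -0.71 and -0.58).

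Of 9 tested genes for the linear ubiquitin ligase and for deubiquitinases 5 rose and 3 fell. The falls were those of Rbck1 and Rnf31, which encode the ligase subunits HOIL-1 and HOIP, and of Fam105b, which encodes the linear-chain deubiquitinase OTULIN. Fam105b had 99.6 ± 1.77 CPM in Spt5-depleted cells and 207.9 ± 26.5 CPM in WT cells (log2 fold change -1.06, edgeR adjusted p = 3.72e-07), and Rbck1 stood at -1.01. Rnf31 was near the threshold (log2 fold change -0.31, edgeR adjusted p = 0.0481), its groups overlapped, and its call ended with library totals alone. Spata2, which links the deubiquitinase CYLD to the ligase, rose to 64.9 ± 1.07 CPM in depleted cells, against 32.8 ± 1.63 CPM in WT cells (log2 fold change 0.98). Otud7b, a deubiquitinase of TRAF3, and Usp21, another deubiquitinase, rose too (log2 fold changes 0.75 and 0.49).

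Of 5 partners and relatives of A20 and ABIN1 3 fell and 1 rose. Tnip3 and Tnip2, which encode ABIN3 and ABIN2, had 1.57 ± 0.12 and 5.96 ± 0.64 CPM in Spt5-depleted cells, against 5.29 ± 0.94 and 10.0 ± 1.23 CPM in WT cells (SD, n = 3 each). Their log2 fold changes were -1.75 and -0.75 (edgeR adjusted p = 4.38e-06 and 0.000447). All 3 ABIN genes, Tnip1 included, thus fell, where 30.6% of all genes tested were lower. Each of these calls held under TMM and under library totals. Tnip3 had few reads, at 28, 31 and 39 counts in depleted and 149, 97 and 126 counts in WT libraries. Tax1bp1, an adaptor of A20, fell under TMM (log2 fold change -0.34) and did not pass with library totals alone (edgeR adjusted p = 0.0656). Rnf11, another part of the A20 complex, rose (log2 fold change 0.40). With library totals alone 2 of the 5 rose and 2 fell, since Itch, the ubiquitin ligase of the A20 complex, then passed as higher (log2 fold change 0.26, edgeR adjusted p = 0.0337), against 0.10 under TMM (edgeR adjusted p = 0.375).

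Of 9 death receptor and caspase-8 partners of c-FLIP 4 rose and 3 fell. Casp8, the caspase that c-FLIP holds in check, fell to 203.1 ± 13.4 CPM in Spt5-depleted cells, against 279.3 ± 15.8 CPM in WT cells (SD, n = 3 each, log2 fold change -0.46, edgeR adjusted p = 0.000328). Mlkl, the executor of necroptosis, fell too (log2 fold change -1.40). Tnfrsf10b, a TRAIL receptor, rose to 96.4 ± 0.29 CPM in depleted cells, against 41.3 ± 2.40 CPM in WT cells (log2 fold change 1.22). Fadd, the adaptor that binds caspase-8, rose (log2 fold change 0.49).

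Of 10 NF-kB subunit and IkB genes 5 rose and 2 fell, and with library totals alone 6 rose and 2 fell. Nfkb1, whose p50 product is a binding partner of Bcl3, fell to 379.0 ± 0.91 CPM in Spt5-depleted cells, against 1177 ± 44.0 CPM in WT cells (log2 fold change -1.64). Rel fell too (-0.56), with depleted replicate 3 and WT replicate 3 almost equal (147.45 and 147.54 CPM). The subunit genes Rela and Relb rose (log2 fold changes 0.48 and 0.29), and the subunit gene Nfkb2 did not pass. The IkB family genes Nfkbiz, Nfkbie and Nfkbid rose as well (log2 fold changes 1.25, 0.62 and 0.59).

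The rows for Traf3ip3, Diablo, Htra2, Spata2, Nfkb2, Lck, Trac, Csf1r and Xist carry a name suffix that may stand for overlapping annotation. Their counts may thus include reads of a neighbour. None of the 10 regulators carries the suffix. Of the summed levels of markers of other cells, those of T cells and NK cells did not overlap between the groups, and the others overlapped. The summed level of 7 macrophage and monocyte markers was 28.1 to 63.1 CPM in Spt5-depleted and 23.6 to 32.3 CPM in WT libraries, with Csf1r, Emr1, Itgam and Cd14 higher of the 6 tested. The summed level of 7 T cell markers was 17.3 to 35.5 CPM in depleted and 39.3 to 42.1 CPM in WT libraries, with Lck lower and the other 6 not passing. Summed levels of 5 dendritic, 5 NK and 3 neutrophil markers were 98.0 to 99.6, 6.62 to 10.0 and 0.670 to 3.93 CPM in depleted libraries and 95.6 to 112.9, 10.9 to 15.8 and 0.412 to 0.999 CPM in WT libraries. Of 4 dendritic markers tested Xcr1 and Zbtb46 were higher (log2 fold changes 2.75 and 0.66) and Batf3 was lower (-2.52), while Flt3, which makes up most of the sum, did not pass. Of 3 NK markers tested Eomes was higher (1.00) and Gzma lower (-0.95), and the 1 neutrophil marker tested did not pass. The markers Adgre1, Siglech, Ncr1, Ly6g, Elane and Camp were also looked for and had no row under these names. Only genes with at least 10 counts over the 6 libraries were listed, so no marker with a row could be at 0 throughout. The part of these cells in the values above was not tested.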

How the data were processed

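Poly(A) RNA libraries were made with the SENSE mRNA-seq kit from total RNA extracted with Trizol, per the labels' protocols. The submitters' processing notes name the build mm9 and the tools featureCounts 1.5.0-p1, TopHat, Bowtie2 2.1.0, cutadapt 1.10 and DESeq2 1.10.1, with no role for any of them. The annotation, strandedness of the counting and handling of multiply mapped reads are likewise not stated. Per the file headers, the deposited table holds raw read counts per gene beside the authors' adjusted p-value and the authors' log2 fold change. It lists genes with at least 10 counts over the 6 libraries. The 18 samples of other assays were not analysed here.

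Groups came from the sample titles, and columns headed KO were taken as the Spt5-depleted samples of the same number. Counts were analysed with R 4.3.3 and edgeR 4.0.16 (filterByExpr, TMM, robust quasi-likelihood F test, two-sided, Benjamini-Hochberg over all tested genes). CPM use TMM-scaled library sizes. Standard errors come from the F statistic and intervals from its t distribution. Alternatives used DESeq2 1.42.0 and limma 3.58.1. Replicate libraries differed beyond sampling noise, and more so in the WT group. The chi-square per degree of freedom was 6.13 to 10.2 between Spt5-depleted libraries and 26.4 to 31.2 between WT libraries.

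The genes, the lists and the comparisons were chosen with earlier results of these data known. Named genes are Supt5, the 10 regulators, up to 3 risen and 3 fallen genes of each list with the largest log2 fold change, and Map3k14, Cd40, Tnfrsf13c, Casp8, Xist and Ddx3y by this rule. Xiap, Itch, Rela, Relb, Nfkb2 and the markers of other cells were named after their values were seen. Some genes that this rule names, and 1 of the 9 lists, are counted in the totals and not reported here. The Otulin symbol has no row of its own and its older name Fam105b was used. Within-library ratios were chosen after the values were seen. So was the motif. Its spelling, 1 of 5 searched, replaced a spelling with 10 letters that was the main one at first. That replacement was made with the matches of all 5 known, and the share of windows matched depends on the spelling. The other 4 match between 1.63% and 50.8% of all promoter windows and between 3 and 9 of the 12 windows of these genes. Promoter coordinates are those of RefSeq's GRCm38.p6, not of the authors' build.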

Additional observations from a re-analysis of the deposited data

How the results depend on the processing

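In all 14 alternatives were run: scaling by library totals or by DESeq2's size factors, tests by limma-voom or by DESeq2 (Wald), the replicate number as a block, 2 other filters (none, or at least 5 CPM on average), a threshold of 0.01, and each library left out. Of 140 values for single regulators 123 kept their sign and their side of the threshold, 12 lost the call and 5 changed sign. The 12 lost calls were those of Traf5, Cflar and Bcl3. With library totals alone 4 regulators were lower, against 7, and the log2 fold change of Tnfaip3 was 0.137. Without depleted replicate 1 and without WT replicate 2 Tnfaip3 stood at 0.0106 and 0.0228, and over all left-out libraries it lay between -0.0698 and 0.0228. Without depleted replicate 3 and without WT replicate 3 Traf3 stood at -0.0183 and -0.00533, within a range of -0.0183 to 0.113. Leaving out 1 library gave 5 to 7 lower regulators and 1 higher. Over all alternatives the adjusted p ran from 0.00947 to 0.196 for Traf5, from 0.0118 to 0.478 for Cflar, from 0.00169 to 0.0725 for Bcl3, from 0.0748 to 0.965 for Traf3 and from 0.178 to 0.939 for Tnfaip3. At an adjusted p under 0.01 Traf5 and Cflar were not called.

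With the replicate number as a block 7 regulators were lower and 1 higher, and over all genes 3755 were higher and 3614 lower. Libraries with the same number did not deviate together (correlations of 0.038, -0.040 and -0.005), so the numbers were not taken as pairs. Over all genes 3823 were higher and 3681 lower, and with library totals alone 4961 and 2694. The counts hold no spike-in, so they do not choose between the scalings. Traf5, with 133 to 261 counts a library, has the widest interval of the 10.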
